A study of Homo sapiens with 3 samples.

Results

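Interferon-stimulated genes are the antiviral and signalling genes that a cell switches on when it senses viral nucleic acid or meets an interferon. The 43 genes described here were taken as a list of symbols: interferon-induced effectors, RNA sensors, and STAT and IRF factors. All 43 were among the 23277 symbols measured. They were followed in CaSki, an established human line of squamous cervical cancer whose genome holds papillomavirus DNA. There were 3 groups of 1 library each. The first held cells carrying FLAG-tagged NANOG in the retroviral vector pMSCV and given an siRNA against HDAC1, the second held the same NANOG cells given an siRNA against GFP, and the third held cells with the empty pMSCV vector and the GFP siRNA. NANOG is known as a regulator of pluripotency, and HDAC1 removes acetyl groups from histones as part of several corepressor complexes. The vector drives NANOG in carcinoma cells that made almost none of its RNA themselves, and the labels do not say whether a line was 1 clone or a pool. Every difference below therefore compares 2 libraries, with no replicate check, no error and no p-value.

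In the textbook pathway, RIG-I-like receptors bind double-stranded or capless RNA in the cytoplasm and signal to IRF transcription factors, which turn on interferon beta, the lambda interferons and some antiviral genes directly. Secreted interferon then acts through its receptors and the kinases JAK1 and TYK2 to form a complex that includes STAT2 and IRF9 and binds the interferon-stimulated response element (ISRE) in the promoters of the antiviral genes. Interferon gamma acts through a different element, the gamma-activated site (GAS).

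The ISRE was therefore looked for in the promoters of the members. RefSeq promoter windows on GRCh38.p14, each with 250 bases before and 50 after an annotated transcription start, were found for 34 of the 43 members. The ISRE core was searched as GAAANNGAAA, which reads TTTCNNTTTC on the other strand, and overlapping matches were counted singly. It was present in at least 1 window of 23 of the 34 members (67.6%), against 4.38% of all 27305 symbols with a window. The GAS was searched as TTCNNNGAA, which reads the same on both strands, and was present for 11 of the 34 (32.4%), against 9.38% of all symbols. Both motifs were found for 5 members, in part overlapping each other, and neither for 5. Of the 46 ISRE matches, 44 began within the 200 bases before a start. Windows of 1 gene or of neighbours can overlap, and the 46 matches lie at 42 different places in the genome. A match is only a description of these letters and shows no bound factor.

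The 250 bases before the start of 4 members are printed, with ISRE core matches in capitals. All 4 were picked from the 23 members with a match, so they do not stand for the members without one. ISG15, IFIT1 and CXCL10 were among the members at least 1.5-fold higher with NANOG, and BST2 was not. They lie at chr1:1013247-1013496 on the plus strand, chr10:89392373-89392622 on the plus strand, chr4:76023498-76023747 on the minus strand and chr19:17405631-17405880 on the minus strand of GRCh38.p14. ISG15 and BST2 each hold 2 overlapping matches, IFIT1 holds 2 separate ones and CXCL10 holds 1 far from its start.
ISG15: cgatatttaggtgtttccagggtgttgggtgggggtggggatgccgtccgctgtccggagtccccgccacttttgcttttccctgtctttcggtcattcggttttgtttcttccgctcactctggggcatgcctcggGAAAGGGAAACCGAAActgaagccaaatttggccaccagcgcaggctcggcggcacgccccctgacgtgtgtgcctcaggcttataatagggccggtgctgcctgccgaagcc
IFIT1: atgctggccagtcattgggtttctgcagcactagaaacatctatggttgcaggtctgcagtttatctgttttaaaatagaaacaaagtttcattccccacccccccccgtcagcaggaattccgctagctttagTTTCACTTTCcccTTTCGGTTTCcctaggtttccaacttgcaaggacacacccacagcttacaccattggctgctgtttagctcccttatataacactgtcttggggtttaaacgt
CXCL10: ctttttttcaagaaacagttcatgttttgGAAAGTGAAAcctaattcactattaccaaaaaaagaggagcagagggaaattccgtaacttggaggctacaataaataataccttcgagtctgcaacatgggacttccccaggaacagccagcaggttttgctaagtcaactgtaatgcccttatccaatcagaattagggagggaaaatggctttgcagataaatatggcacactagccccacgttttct
BST2: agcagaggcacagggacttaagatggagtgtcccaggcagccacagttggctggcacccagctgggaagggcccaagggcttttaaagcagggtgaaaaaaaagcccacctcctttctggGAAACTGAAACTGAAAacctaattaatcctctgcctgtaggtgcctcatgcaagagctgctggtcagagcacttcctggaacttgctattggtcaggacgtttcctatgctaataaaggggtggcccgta

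**Figure D1:**
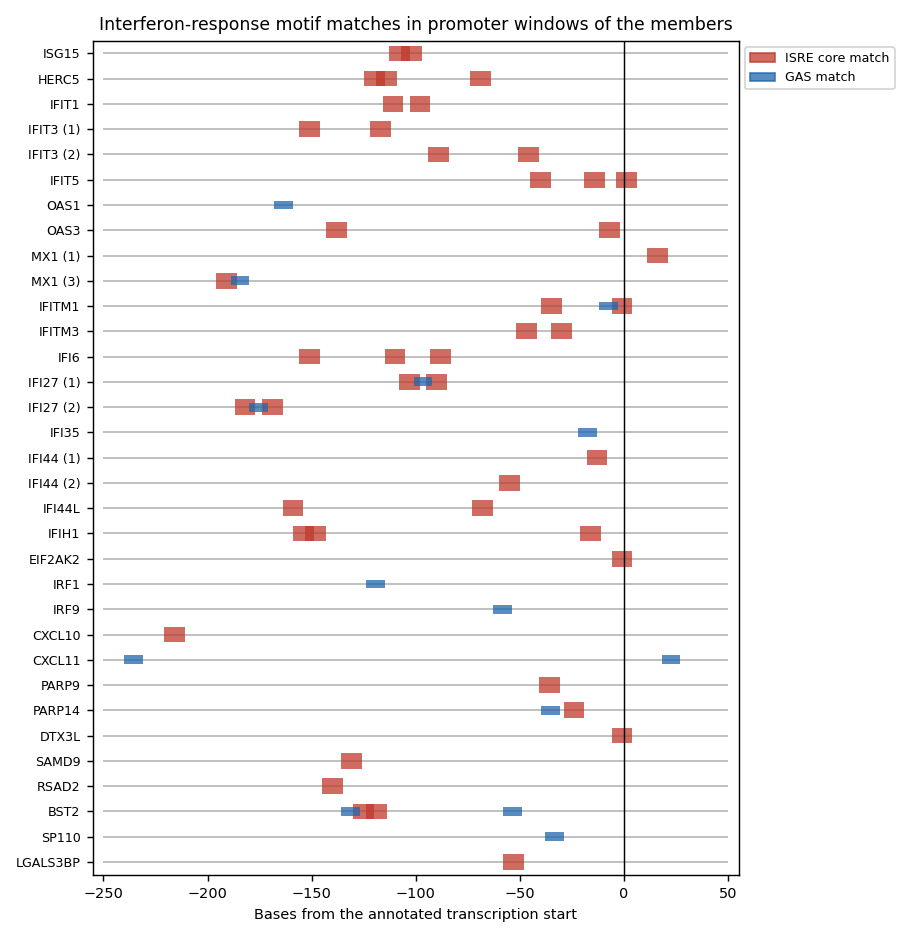
Positions of ISRE core matches (red) and GAS matches (blue) along the promoter windows of the members with a match, in bases from the annotated transcription start at 0; a number in parentheses marks 1 of several windows of a gene. ISRE matches lie mostly upstream of the start, 44 of 46 within the 200 bases before it.

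The values are FPKM, fragments per kilobase of transcript and per fixed number of mapped fragments. The labels held for NANOG, at 325 FPKM in the NANOG HDAC1 siRNA library, 298 FPKM in the NANOG GFP siRNA library and 0.0357 FPKM in the empty vector library. HDAC1 was at 12.8 FPKM with HDAC1 siRNA, 108 FPKM in the NANOG GFP siRNA library and 19.02 FPKM with empty vector, so that library was high in HDAC1 itself. Fragment depth was unknown. The lowest FPKM values move in steps of whole fragments, and the ratio of the steps was 0.982 for NANOG over empty vector, 1.0 for HDAC1 over GFP siRNA in NANOG cells and 0.982 for NANOG with HDAC1 siRNA over empty vector. It was searched only between 0.9 and 1.1, so a ratio outside this range could not have been found. The 8 keratinocyte markers summed to between 1937 and 2312 FPKM, with TP63 at 0.785 to 1.29 FPKM and DSG3 at no more than 0.0506 FPKM. They did not move as 1 group. KRT5 was at 540 FPKM in the NANOG HDAC1 siRNA library, 959 FPKM in the NANOG GFP siRNA library and 555 FPKM with empty vector, and KRT6A at 24.5, 39.8 and 23.6 FPKM. KRT14 was at 80.4, 76.9 and 114 FPKM in these libraries, KRT17 at 1065, 917 and 1359 FPKM and CDH1 at 57.2, 70.1 and 92.0 FPKM. Leukocyte, plasmacytoid dendritic cell, fibroblast and endothelial markers (15 genes) were all below 1 FPKM in every library, with sums of at most 0.370, 0.0223, 0.993 and 0.493 FPKM.

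The members were already on in empty vector cells. Together the 43 genes summed to 2756 FPKM with NANOG and HDAC1 siRNA, 2979 FPKM with NANOG and GFP siRNA and 2231 FPKM with empty vector. These sums were 0.546%, 0.568% and 0.428% of all FPKM outside small RNA symbols, in the same order. ISG15, a ubiquitin-like protein that is joined to other proteins, and IFITM3, a membrane protein that blocks viral fusion, were the most abundant, at 489 and 423 FPKM in empty vector cells. The 3 scarcest members were below 1 FPKM in every library. The listed values of IFI44L were 0.0417 FPKM with NANOG and HDAC1 siRNA, 0.0656 FPKM with NANOG and GFP siRNA and 0.122 FPKM with empty vector. In the same order of libraries XAF1, a pro-apoptotic protein, had 0.00999, 0.0900 and 0.0611 FPKM, and UBA7, the enzyme that activates ISG15, had 0.313, 0.551 and 0.275 FPKM. The remaining 40 members averaged 1 FPKM or more across the libraries, as did 11399 genes in all, and only these are counted below. No member was listed at 0.

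**Figure D2:**
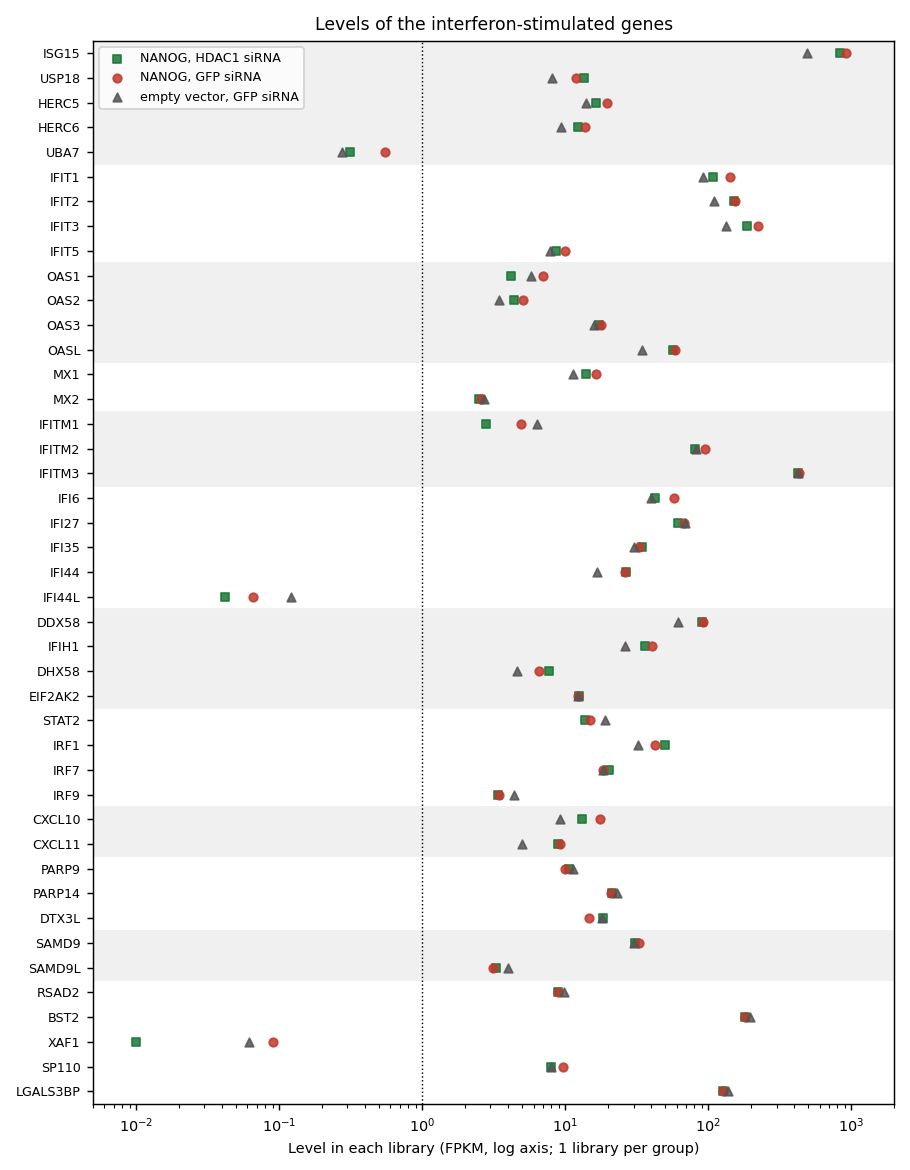
Level of each of the 43 members in FPKM (log axis) in the NANOG HDAC1 siRNA (squares), NANOG GFP siRNA (circles) and empty vector GFP siRNA (triangles) libraries, 1 library per group, with shading by role; the dotted line is 1 FPKM. ISG15 reaches 922 FPKM in the NANOG GFP siRNA library, while IFI44L, XAF1 and UBA7 stay under 1 FPKM.

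The first comparison set the NANOG library against the empty vector library, where GFP siRNA was used in both. The members at least 1.5-fold higher with NANOG were ISG15, the chemokines CXCL10 and CXCL11, the OAS-like gene OASL, IFIT1 and IFIT3, the RNA sensor gene IFIH1, and IFI44. Others were higher by less than 1.5-fold. Some were not higher, among them STAT2 and IRF9, of the complex that binds the ISRE. Differences are given as log2(FPKM + 1), which understates the change of low genes. The 40 members had a median of 0.24 against -0.01 over all 11399 genes, with 27 above 0 and 13 below, against 49.2% and 50.8% of all genes. At least 1.5-fold higher were 8 of the 40 members (20%), where 3.47% of all genes were, and 0 were at least 1.5-fold lower, where 5.25% of all genes were. None of the 40 passed 2-fold in either direction, against 0.675% of all genes higher and 1.20% lower. In RNA from whole cultures, a higher level in each cell and more cells that express a gene cannot be told apart.

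The 4 counted members grouped as the ISG15 system were all higher in this comparison. ISG15 was at 922 FPKM in NANOG cells and 489 FPKM in empty vector cells, a difference of 0.92, and it ranked 78th and 141st among the 11399 genes of these libraries. USP18, the protease that removes ISG15 and dampens the interferon receptor, was at 12.0 FPKM in NANOG and 8.12 FPKM in empty vector cells (0.51). HERC5, the main ligase for ISG15, was at 19.5 FPKM in NANOG and 14.0 FPKM in empty vector cells (0.45), and its neighbour HERC6 at 13.8 and 9.30 FPKM (0.52). Of these 4, only ISG15 was higher by 1.5-fold or more. The group left out UBE2L6 and TRIM25, which stood in other lists and were lower in the NANOG library (-0.15 and -0.53).

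The 4 IFIT genes, whose proteins bind RNA that lacks host cap marks, lie side by side on chromosome 10 and were all higher with NANOG. IFIT3 was at 223 FPKM in NANOG and 133 FPKM in empty vector cells (0.73), and IFIT1, which had 2 ISRE matches above, at 142 and 91.3 FPKM (0.64). IFIT2 was at 153 and 109 FPKM (0.48) and IFIT5 at 10.02 and 7.78 FPKM (0.33). The order of the 4 by size of difference was thus not their order by level, since IFIT2 was more abundant than IFIT1 and differed less.

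Among the OAS genes, which make the signal that activates RNase L, OASL stood out. OASL, a relative that lacks this enzyme activity and assists RIG-I instead, was at 58.7 FPKM in NANOG and 34.5 FPKM in empty vector cells (0.75). Of the 3 clustered genes, OAS1 was at 7.01 FPKM in NANOG and 5.80 FPKM in empty vector cells (0.24), OAS2 at 5.04 and 3.46 FPKM (0.44) and OAS3 at 17.7 and 15.8 FPKM (0.16). The GTPase gene MX1, which blocks influenza and other viruses, was at 16.4 and 11.4 FPKM (0.50), and its neighbour MX2, which acts on HIV, at 2.58 and 2.70 FPKM (-0.05).

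Both chemokines, ligands of CXCR3 that attract T cells, were higher in NANOG cells. CXCL10 was at 17.5 FPKM in NANOG and 9.21 FPKM in empty vector cells (0.86), and CXCL11 at 9.16 and 4.99 FPKM (0.76). They are neighbours on chromosome 4, and the ISRE core was found for CXCL10 while CXCL11 had GAS matches only.

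Of the cytoplasmic RNA sensors, DDX58, which encodes RIG-I, was at 91.8 FPKM in NANOG and 61.7 FPKM in empty vector cells, and its difference of 0.57 was just under 1.5-fold (0.585). IFIH1, which encodes MDA5, was at 40.4 and 26.2 FPKM (0.61), just past it. DHX58, which encodes the regulator LGP2, was at 6.52 and 4.58 FPKM (0.43). The fourth sensor, EIF2AK2, encodes the kinase PKR that stops translation; it was at 12.3 FPKM in NANOG and 12.2 FPKM in empty vector cells (0.01). The 3 RIG-I-like genes were thus higher in the NANOG library by 0.43 to 0.61, and the PKR gene was level.

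The IFI genes were mixed. IFI44, of little known function, was at 26.04 FPKM in NANOG and 16.8 FPKM in empty vector cells (0.60), whereas its neighbour IFI44L was almost silent in both. IFI6, a mitochondrial and endoplasmic reticulum protein that limits flaviviruses, was at 57.5 and 39.9999 FPKM (0.51). IFI35 was at 32.7 and 30.04 FPKM (0.12) and IFI27 at 68.1 and 68.2 FPKM, less than 0.01 apart in size.

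The transcription factors did not move together. STAT2 was at 14.9 FPKM in NANOG and 18.99 FPKM in empty vector cells (-0.33), and IRF9 at 3.42 and 4.40 FPKM (-0.29). IRF7, which amplifies interferon production, was at 18.3 and 18.4 FPKM (-0.01). IRF1, which interferon gamma and NF-kB induce, was the higher one, at 42.3 FPKM in NANOG and 32.4 FPKM in empty vector cells (0.37). STAT2 and IRF9 were thus lower in the NANOG library, under every scaling tried.

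The members that were not higher also included PARP9, DTX3L and PARP14, neighbours that encode ADP-ribosylation factors and a ubiquitin ligase of the interferon response. PARP9 was at 9.98 FPKM in NANOG and 11.3 FPKM in empty vector cells (-0.16), DTX3L at 14.6 and 18.1 FPKM (-0.30) and PARP14 at 20.8 and 23.03 FPKM (-0.14). The 5' ends of PARP9 and DTX3L overlap, and how strand was handled in counting is not given in the sources used here, so their reads may not be separable. BST2, which encodes tetherin and tethers budding virions, was at 180.1 FPKM in NANOG and 196 FPKM in empty vector cells (-0.12), although its promoter holds 2 ISRE matches. LGALS3BP, a secreted glycoprotein, was at 127 and 136 FPKM (-0.10). RSAD2, which encodes viperin, was at 8.93 and 9.74 FPKM (-0.11).

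SAMD9 and SAMD9L, neighbours that encode restriction factors for poxviruses, were at 32.9 and 3.13 FPKM in NANOG cells and 30.1 and 3.96 FPKM in empty vector cells, differences of 0.12 and -0.27. The nuclear body gene SP110 was at 9.57 FPKM in NANOG and 7.96 FPKM in empty vector cells (0.24). Of the IFITM genes, IFITM3 was at 428 and 423 FPKM (0.02), IFITM2 at 94.4 and 81.5 FPKM (0.21) and IFITM1 at 4.89 and 6.39 FPKM (-0.33). The 3 IFITM genes are close paralogs, so reads may have been split between them.

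**Figure D3:**
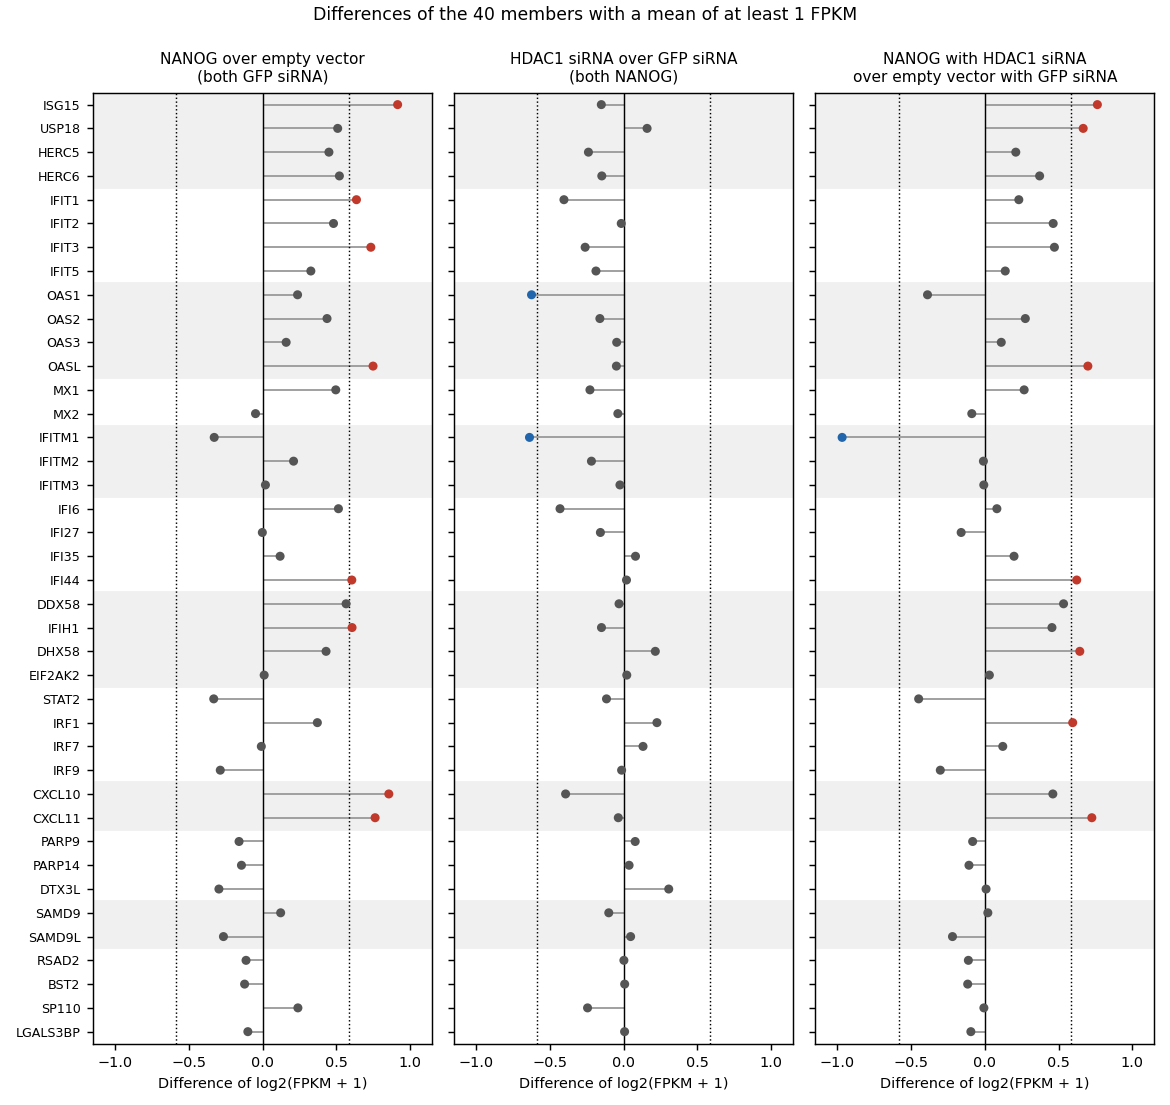
Difference of log2(FPKM + 1) for the 40 members averaging 1 FPKM or more, in each of the 3 comparisons, from 1 library per group; dotted lines mark 1.5-fold, red points lie at or above it and blue points at or below it. In the first comparison 8 members pass 1.5-fold higher and 0 lower, in the second 0 and 2, and in the last 7 and 1. Rescaling to TPM puts the median of all genes at 0.18 in the second comparison and 0.13 in the last. Under TPM 0 members pass 1.5-fold lower in the second and 12 pass it higher in the last. The share of all genes past 1.5-fold was not counted under TPM.

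Members with and without an ISRE match overlapped in their differences. The 22 kept members with a match had a median of 0.14, with a range of -0.33 to 0.92, the 10 with a window but no match a median of 0.24, and the 8 with no window a median of 0.43. At least 1.5-fold higher were 6 of the 22, 1 of the 10 and 1 of the 8, where 3.47% of all genes were. Members with a match included ISG15 and CXCL10 at one end and IFITM1 and DTX3L at the other.

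The interferon genes themselves were measured next, as a list of 21. Of these, 13 were listed at 0 in all 3 libraries and 17 were below 1 FPKM in all of them; IFNG and all but 1 of the IFNA genes were among those at 0. The 4 that were expressed are named after their values were seen. IFNB1, interferon beta, was at 56.0 FPKM in NANOG cells and 28.7 FPKM in empty vector cells (0.94). IL29, interferon lambda 1, was at 36.9 and 15.3 FPKM (1.22). IL28A and IL28B, the near-identical genes of interferon lambda 2 and 3 whose reads may be shared, were at 7.56 and 11.3 FPKM in NANOG cells and 2.69 and 4.23 FPKM in empty vector cells (1.22 and 1.23). All 4 were at least 1.5-fold higher in the NANOG library, where 3.47% of all genes were. The 3 lambda genes were at least 2-fold higher, where 0.675% of all genes were. Beta and lambda interferon RNA was present in empty vector cells too; all 3 libraries came from cells given an siRNA, and cells without one were not analysed here.

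The genes between interferon and its targets differed less in this comparison. The list of receptors, kinases and STATs (10 genes) had a median of 0.11, with 0 genes past 1.5-fold. Of all genes 3.47% were at least 1.5-fold higher and 5.25% lower, so a list of 10 can hold none without differing from them. IFNAR1 was at 8.15 FPKM in NANOG and 10.3 FPKM in empty vector cells and IFNAR2 at 3.83 and 3.49 FPKM, the chains of the receptor for interferon alpha and beta (-0.31 and 0.11). The lambda receptor chains IL28RA and IL10RB were at 1.36 and 12.2 FPKM in NANOG cells and 0.984 and 10.02 FPKM in empty vector cells (0.25 and 0.26). JAK1 was at 28.6 and 39.4 FPKM (-0.45), TYK2 at 8.48 and 8.16 FPKM (0.05) and JAK2 at 4.70 and 4.29 FPKM (0.11). STAT3 was at 47.8 and 69.0 FPKM (-0.52). The gamma receptor chains IFNGR1 and IFNGR2 differed by 0.33 and 0.29.

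**Figure D4:**
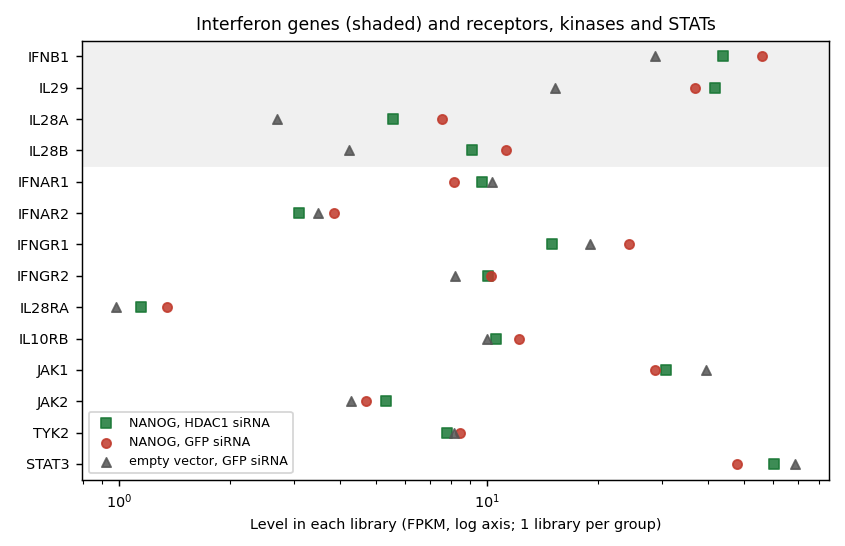
Levels in FPKM (log axis) of the 4 expressed interferon genes (shaded) and of the receptors, kinases and STATs of the pathway in the NANOG HDAC1 siRNA (squares), NANOG GFP siRNA (circles) and empty vector (triangles) libraries, 1 library per group. For each interferon gene both NANOG libraries lie right of the empty vector library, while the genes below them spread less and in both directions.

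Neither regulators of the response nor the other upstream sensing genes were higher as lists. A list of 8 genes drawn up as feedback inhibitors, which also held the antiviral exonuclease gene ISG20 and left out USP18, had a median of -0.09 and no gene past 1.5-fold. The 15 kept genes of sensing upstream of interferon had a median of -0.11. Only DDX60, a helicase linked to RIG-I signalling, passed 1.5-fold, at 38.8 FPKM in NANOG and 21.9 FPKM in empty vector cells (0.79). Of all genes 3.47% were at least 1.5-fold higher and 5.25% lower, so few or none would be met in lists this short. This list left out the RNA sensors among the members, DDX58, IFIH1, DHX58 and EIF2AK2, which differed by 0.57, 0.61, 0.43 and 0.01.

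Interferon-stimulated genes outside the 43 had a median near that of all genes. A list of 40 such genes, some of them also in the lists above, had 35 kept, with a median of -0.05. Of these, 16 were above 0, 3 past 1.5-fold upward and 2 downward, against 49.2%, 3.47% and 5.25% of all genes. The higher ones were DDX60, the antiviral zinc finger protein gene ZC3HAV1, at 112 FPKM in NANOG and 68.7 FPKM in empty vector cells (0.70), and the lysosomal reductase gene IFI30, at 73.6 and 45.8 FPKM (0.67). The lower ones were the GTPase gene GBP1, a strong target of interferon gamma, at 5.02 and 9.57 FPKM (-0.81), and the ubiquitin ligase gene RNF213, at 5.55 and 10.05 FPKM (-0.75). Both lists were drawn up with earlier results of these data known, and the difference between them was not tested.

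**Figure D5:**
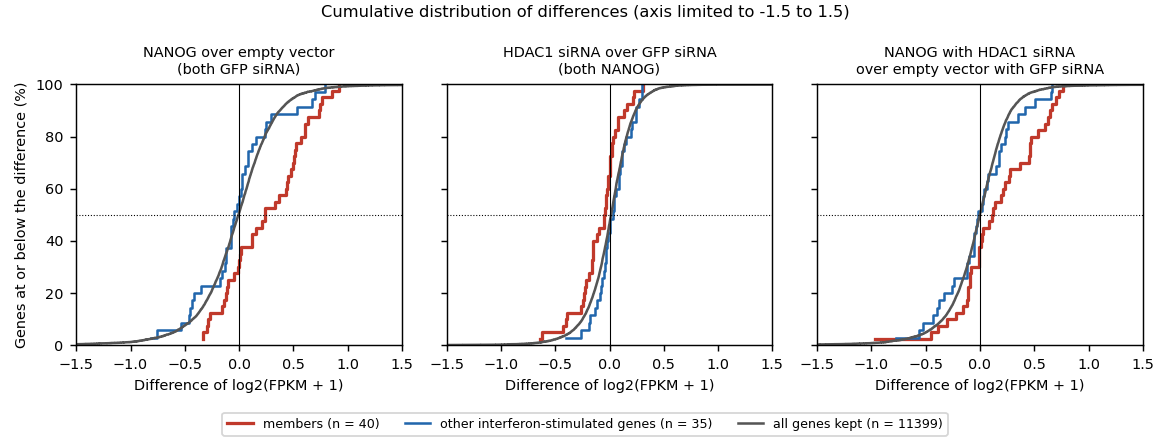
Cumulative share of genes (percent) at or below each difference of log2(FPKM + 1), for the 40 members kept (red), 35 other interferon-stimulated genes (blue) and all 11399 genes kept (grey), in the 3 comparisons. In the first panel the members' median is 0.24 against -0.05 and -0.01; in the second it is -0.04, which becomes 0.13 under TPM while that of all genes becomes 0.18.

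The second comparison stayed within NANOG cells and set HDAC1 siRNA against GFP siRNA. Few members differed by much: IFITM1 and OAS1 were lower with HDAC1 siRNA. Several genes that were high with NANOG were slightly below their NANOG GFP siRNA level. That library is also part of the first comparison, so a gene high in it alone is higher there and lower here. The median of the 40 members was -0.04 against 0.01 over all genes as deposited, and 0.13 against 0.18 after rescaling to TPM, in which every library has the same sum. Small RNA symbols held 15.99% of all FPKM with HDAC1 siRNA and 23.1% with GFP siRNA in NANOG cells, and 21.2% in empty vector cells, and their part in the result was not tested. As deposited 14 members lay above 0 and 26 below, against 53.4% and 46.6% of all genes. Under TPM 28 lay above and 12 below, where the median of all genes was itself above 0, at 0.18. At least 1.5-fold lower were 2 of 40 members (5%), against 1.43% of all genes, and 0 were at least 1.5-fold higher, against 0.675%. Under TPM the first count was 0, and the share of all genes was not counted there. None passed 2-fold, against 0.0877% of all genes higher and 0.211% lower.

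IFITM1 was at 2.78 FPKM with HDAC1 siRNA and 4.89 FPKM with GFP siRNA (-0.64), and OAS1 at 4.19 and 7.01 FPKM (-0.63). Their paralogs were also below 0 as deposited but by less, with IFITM3 at -0.03, IFITM2 at -0.22, OAS2 at -0.16, OAS3 at -0.05 and OASL at -0.05, while under TPM IFITM3, OAS3 and OASL were above 0. The next lowest were IFI6, at 42.4 FPKM with HDAC1 siRNA and 57.5 FPKM with GFP siRNA (-0.43), IFIT1, at 107 and 142 FPKM (-0.41), and CXCL10, at 13.1 and 17.5 FPKM (-0.39). IFIT3 was at 185 and 223 FPKM (-0.26). ISG15 was at 830.1 and 922 FPKM (-0.15), a difference that becomes 0.03 under TPM.

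On the other side stood DTX3L, at 18.3 FPKM with HDAC1 siRNA and 14.6 FPKM with GFP siRNA (0.31), IRF1, at 49.6 and 42.3 FPKM (0.23), DHX58, at 7.73 and 6.52 FPKM (0.21), and USP18, at 13.5 and 12.0 FPKM (0.16). The sensor gene DDX58 and OASL were near level as deposited, with DDX58 at 89.8 and 91.8 FPKM (-0.03) and OASL at 56.7 and 58.7 FPKM. Of the interferons, IFNB1 was at 44.0 and 56.0 FPKM (-0.34), IL28A at 5.57 and 7.56 FPKM (-0.38) and IL28B at 9.10 and 11.3 FPKM (-0.29), while IL29 was at 41.8 and 36.9 FPKM (0.18). None of the 4 passed 1.5-fold. IFNGR1, at 15.04 FPKM with HDAC1 siRNA and 24.3 FPKM with GFP siRNA (-0.66), was the one gene of the receptors, kinases and STATs that did, and it lay inside 1.5-fold under TPM, at -0.49. No kept gene of the regulator, sensing and other interferon-stimulated lists passed 1.5-fold, where 0.675% of all genes were higher by that much and 1.43% lower. Among the keratinocyte markers KRT5 (-0.83) and KRT6A (-0.68) passed it, and their part in the members' differences was not tested.

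The remaining members lay within 0.25 of their level with GFP siRNA, in size. Of the antiviral effectors, IFIT2 was at 151 FPKM with HDAC1 siRNA, IFIT5 at 8.67 FPKM, MX1 at 13.9 FPKM, MX2 at 2.48 FPKM, OAS2 at 4.40 FPKM and OAS3 at 17.1 FPKM. Their differences were -0.02, -0.19, -0.23, -0.04, -0.16 and -0.05, all below 0 as deposited, while under TPM IFIT2, MX2 and OAS3 were above it. IFITM2 was at 80.9 FPKM with HDAC1 siRNA and IFITM3 at 420.5 FPKM. Of the ISG15 system, HERC5 was at 16.4 FPKM with HDAC1 siRNA (-0.24) and HERC6 at 12.3 FPKM (-0.15). IFIH1 was at 36.3 FPKM (-0.15) and EIF2AK2 at 12.5 FPKM (0.02).

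Among the rest, BST2 was at 181 FPKM with HDAC1 siRNA, LGALS3BP at 128 FPKM and RSAD2 at 8.94 FPKM, each within 0.01 of its GFP siRNA level. PARP9 was at 10.6 FPKM (0.08), PARP14 at 21.3 FPKM (0.04), IRF7 at 20.1 FPKM (0.13) and IFI35 at 34.6 FPKM (0.08). IFI27 was at 60.9 FPKM (-0.16), SP110 at 7.92 FPKM (-0.25), SAMD9 at 30.6 FPKM (-0.10) and SAMD9L at 3.26 FPKM (0.05).

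The third comparison set NANOG cells with HDAC1 siRNA against empty vector cells with GFP siRNA. It leaves out the NANOG GFP siRNA library, but it shares a library with each comparison above and differs in both NANOG and siRNA. Most of the leading genes were again above empty vector. The median of the 40 members was 0.12 against less than 0.01 in size over all genes, and 0.25 against 0.13 under TPM. Above 0 lay 25 members and below it 15, against 49.8% and 50.2% of all genes. Under TPM the numbers were 34 and 6, where the median of all genes was itself above 0, at 0.13. At least 1.5-fold higher were 7 of 40 (17.5%), against 1.78% of all genes, and at least 1.5-fold lower was 1, against 3.44%. Under TPM the first count was 12, and the share of all genes was not counted there. None passed 2-fold, against 0.368% of all genes higher and 0.807% lower.

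ISG15 was at 830.1 FPKM with NANOG and HDAC1 siRNA and 489 FPKM in empty vector cells (0.76), CXCL11 at 8.90 and 4.99 FPKM (0.73) and OASL at 56.7 and 34.5 FPKM (0.70). USP18 was at 13.5 and 8.12 FPKM (0.67), DHX58 at 7.73 and 4.58 FPKM (0.64), IFI44 at 26.4 and 16.8 FPKM (0.62) and IRF1 at 49.6 and 32.4 FPKM (0.60). USP18, DHX58 and IRF1 differed by 0.51, 0.43 and 0.37 in the first comparison, inside 1.5-fold there. IFIT1, IFIT3, IFIH1 and CXCL10, past 1.5-fold in the first comparison, differed by 0.23, 0.47, 0.46 and 0.46 here.

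IFITM1 was lowest, at 2.78 FPKM with NANOG and HDAC1 siRNA and 6.39 FPKM in empty vector cells (-0.97). STAT2 was at 13.6 and 18.99 FPKM (-0.45), OAS1 at 4.19 and 5.80 FPKM (-0.39) and IRF9 at 3.38 and 4.40 FPKM (-0.30). The interferon genes stayed above empty vector here, with IFNB1 at 44.0 and 28.7 FPKM (0.60), IL29 at 41.8 and 15.3 FPKM (1.39), IL28A at 5.57 and 2.69 FPKM (0.83) and IL28B at 9.10 and 4.23 FPKM (0.95). HDAC1 siRNA in empty vector cells was not analysed here, so no value gives the difference with this siRNA in cells without NANOG.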

How the data were processed

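CaSki total RNA was sequenced in 3 libraries, 1 per group, grouped by the sample titles. A TruSeq stranded kit for total RNA was used, per the labels' protocols. TopHat2, Cufflinks and hg19 are named in the submitters' processing notes; for their versions, the annotation and the handling of strand, no value is given in the sources used here. As deposited by the authors, each symbol has 1 FPKM value per library, already divided by transcript length and library size, so that a few abundant RNAs lower all other values, and fragments wrongly shared between paralogs pass into the value. Depth in fragments is unknown, and every column of values was used.

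From these, 1640 small RNA symbols were left out of 23277, since FPKM of very short genes is unstable, and 11399 genes averaging 1 FPKM or more were kept. Differences were taken as log2(FPKM + 1), and folds of 1.5 and 2 on that scale were counted. With 1 library per group there was no test. For genes under 0.3 FPKM in every library, the ratio of fragment steps between 2 libraries was the median of the densest 0.2% window of their value ratios. Only value ratios between 0.9 and 1.1 entered. The fold counts and the step ratio were checked on simulated libraries. The changes planted there were larger than any kept member's difference, so that check does not cover calls near 1.5-fold. The members and gene lists, and the 1.5-fold rule, were chosen with earlier results of these data known, and 1 gene was left out of the lists and is not reported here. Members at 2 FPKM or more, or at least 1.5-fold apart, are described by value. Pathway genes are named if 1.5-fold apart or if receptors, kinases or STATs. UBE2L6 and TRIM25 are given besides, after their values were seen. Promoter windows came from RefSeq (GRCh38.p14), not the build of the values, so no position was joined to a read; transcript lengths came from GENCODE release 29 and covered 89.8% of the genes kept. The symbol DDX58 was matched to its current name in RefSeq. The alternatives tried were other pseudocounts (0.1 and 0.5 FPKM), other filters (none, or 5 FPKM), rescaling to a common upper quartile, to an all-gene median log2 ratio of 0, or to TPM over all symbols, and the mean in place of the median. Chosen after seeing the data were 2 more, in which genes were binned by transcript length or by expression (20 bins each) and the bin's median was taken off. Python 3.11.15, numpy 2.4.6, pandas 2.3.3 and matplotlib 3.10.9 were used.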

Additional observations from a re-analysis of the deposited data

How the results depend on the processing

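Among the medians and counts of the 40 members, TPM made the most difference: the median was 0.13 for HDAC1 siRNA over GFP siRNA (-0.04 as deposited) and 0.25 for NANOG with HDAC1 siRNA over empty vector (0.12), with 0 members at least 1.5-fold lower between the 2 NANOG libraries and 12 at least 1.5-fold higher against empty vector. The median of all genes moved too, to 0.18 and 0.13 under TPM in these 2 comparisons. The share of all genes past 1.5-fold was not counted under TPM, so these counts have nothing to be set against. A filter at 5 FPKM removed IFITM1 and left counts of 1 and 0 at least 1.5-fold lower in the same 2 comparisons. Pseudocounts of 0.1 and 0.5 FPKM and removal of the length bins each put 1 member 2-fold lower with HDAC1 siRNA against empty vector. For NANOG over empty vector, no alternative moved the median by over 0.1 or a count by over 1.5 times, and its 8 members past 1.5-fold stayed there except IFI44 (TPM and length bins) and IFIH1 (TPM). Of 1065 single member values under the alternatives, 980 moved by up to 0.1 on the log2 scale and 85 by more. A change of sign was looked for only in values past 1.5-fold, and 0 of these had one. Smaller differences did change sign. For HDAC1 siRNA over GFP siRNA, 14 members lay above 0 as deposited and 28 under TPM. No paired analysis was possible because each group held 1 library. Depth limits the 3 members under 1 FPKM most, and with no second library the spread between cultures is unknown.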
